A study of Mus musculus with 6 samples.

Results

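The BCL2 family decides whether a cell's mitochondria release the factors that start apoptosis. The transcripts of 10 of its genes were examined in mouse bone marrow-derived macrophages, which are cells grown out of marrow into macrophages. The 10 were chosen by symbol, out of 16266 genes in the deposited tables. They were the survival genes Bcl2, Bcl2l1 and Mcl1, the pore-forming genes Bax and Bak1, and the BH3-only genes Bid, Bad, Bbc3, Bcl2l11 and Pmaip1. All 10 were found in the tables and all 10 passed the filter on low counts.

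There were 3 libraries from Capns1 knockout (KO) macrophages and 3 from wild-type (WT) macrophages. Cells of both groups received lipopolysaccharide (LPS, a bacterial cell wall component) for 24 h, so the difference between groups is one between LPS-treated cells. The study's title concerns deletion of Capns1 in myeloid cells, and the labels name no Cre driver, strain, sex or age. The genotype field of the KO samples reads CAPNS1-KO, CAPNS2-KO and CAPNS3-KO in turn, whereas the design text gives Capns1 for the group. Whether a replicate is an animal or a culture of its own is not given in the labels, so each p-value rests on the spread between these libraries alone, and that spread may be technical.

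In the family, survival proteins hold the pore-forming proteins BAX and BAK in check at the mitochondrial outer membrane. BH3-only proteins are the sensors: they bind survival proteins, and some also activate BAX and BAK directly. Once BAX and BAK form pores, cytochrome c escapes and APAF1 and caspase-9 start the caspase cascade. Calpains are calcium-dependent proteases that can cut several of these proteins, among them BID and BAX, and CAPNS1 is the small subunit that calpains 1 and 2 share. Such cleavage acts on proteins and is not visible in transcript counts.

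Capns1 had 492, 478 and 521 CPM (read counts scaled to an equal library total) in the WT libraries and 9.51, 9.94 and 9.13 in the KO libraries. Each KO library thus carried the loss, whichever number its genotype field names. Libraries held 32631163 to 40913819 counts. On the second principal component WT replicate 3 (-23.2) and KO replicate 2 (25.5) lay away from the remaining libraries of the same genotype. The remaining WT libraries stood there at 8.21 and 12.4 and the remaining KO libraries at -12.6 and -10.4. Values are also given without WT replicate 3 and KO replicate 2 where they matter. In fits without both, this component runs with genotype and cannot be told apart from it, so those fits are no independent check. Among macrophage markers, all 10 were measured, with a summed level of 26778 to 34228 FPKM (CPM divided by the gene's length in kilobases) in WT and 26088 to 30274 in KO. Of these 10, 1 fell and 0 rose. The log2 fold change (KO minus WT) was negative for 9 of the 10, with a median of -0.14. Fibroblast and marrow stroma markers summed to 34.4 to 39.6 FPKM in WT and 79.2 to 90.6 in KO, and 5 of 8 rose. Of the 10 neutrophil and granulocyte precursor markers, 2 rose and 3 fell, with sums of 1376 to 1959 FPKM in WT and 1720 to 2135 in KO. Dendritic cell markers summed to at most 0.476 FPKM in any library. T and NK cell markers summed to 2.15 to 2.87 FPKM in WT and 0.364 to 0.963 in KO, and the 1 of them tested, Nkg7, fell. B cell markers summed to 7.18 to 9.03 in WT and 4.89 to 6.63 in KO, with none called. Of 4 endothelial markers 2 fell, with sums of 4.13 to 5.39 in WT and 4.04 to 5.48 in KO. Mast cell and basophil markers summed to 1.34 to 1.67 in WT and 1.82 to 3.38 in KO, with none called. Erythroid markers summed to 1.77 to 4.78 in WT and 2.56 to 3.32 in KO, with none called. None of the 6 cell division markers was called.

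In these cells 2 BH3-only transcripts, Bbc3 and Bcl2l11, were lower in KO, and no member was higher. Bbc3, which encodes PUMA, stood in KO at a fold of 0.598 of its WT level, and Bcl2l11, which encodes BIM, at a fold of 0.721. A gene was called when its adjusted p was under 0.05 in edgeR's quasi-likelihood test, adjusted over 12219 genes. Of all tested genes, 14.6% were called in either direction, 8.44% as higher and 6.21% as lower in KO. The 2 of 10 members called are therefore a share (20%) near that of all genes, and the result concerns those genes and not the family as a set. The median log2 fold change (KO minus WT) of the members was 0.046, beside -0.011 over all tested genes. The calls over all genes numbered 1790, and 1138 without WT replicate 1, 1119 without KO replicate 1, 1149 without KO replicate 3 and 3186 without WT replicate 3 and KO replicate 2 together.

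**Figure D1:**
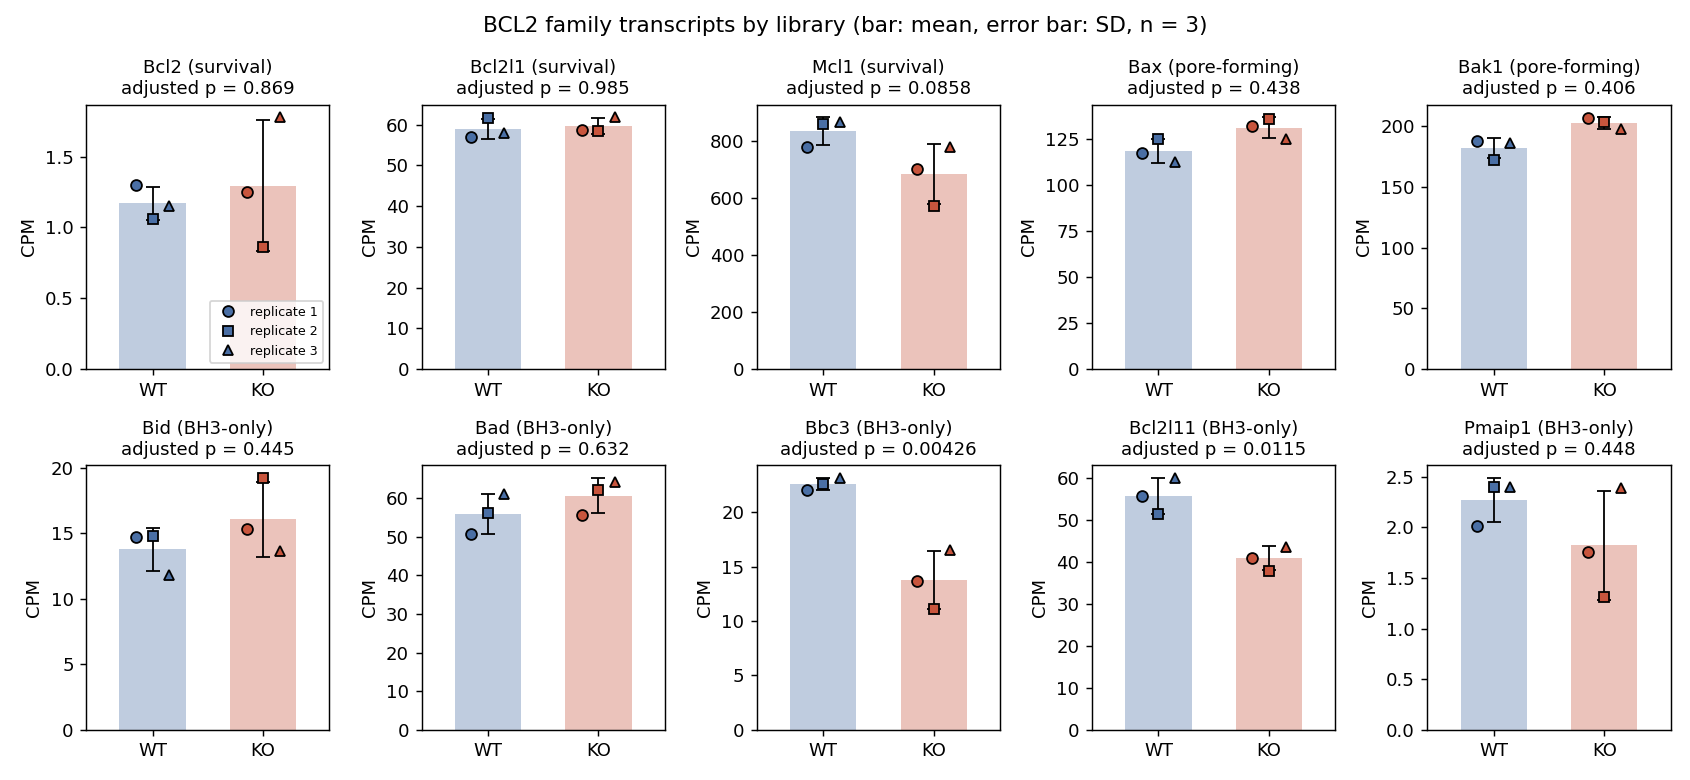
CPM of each of the 10 BCL2 family genes in the 3 WT (blue) and 3 KO (red) libraries, 1 panel per gene with its own axis from 0. Symbols are single libraries, bars group means and error bars the SD (n = 3), and the title gives the edgeR adjusted p. Every KO library lies below every WT library for Bbc3 and Bcl2l11, and KO replicate 2 is the lowest of the 6 libraries for 5 genes.

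Bbc3, a BH3-only gene best known as a target of p53, lies on chromosome 7 at 16308393 to 16318205, plus strand (GRCm38, GENCODE M21). Its 3 WT libraries stood at 22.0, 22.7 and 23.1 CPM. Its KO libraries stood at 13.7, 11.1 and 16.5 CPM. The groups did not overlap, and the spread was wider in KO (13.8 ± 2.71, SD, n = 3) than in WT (22.6 ± 0.549, SD, n = 3). The log2 fold change was -0.74 ± 0.14 SE (95% interval -1.05 to -0.44, edgeR adjusted p = 0.00426). An exact two-sided permutation test over the libraries gave p = 0.1, and groups of 3 can reach no smaller value. The fold change ranged from -0.87 to -0.60 over 17 processing alternatives and was called in each. The smallest was that without WT replicate 3 and KO replicate 2 together.

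Bcl2l11, whose splice forms encode the short and long BIM proteins, lies on chromosome 2 at 128126038 to 128162547, plus strand. The counts do not separate those forms. WT libraries stood at 55.8, 51.5 and 60.1 CPM and KO libraries at 41.0, 37.9 and 43.7 CPM. The groups did not overlap, at 55.8 ± 4.29 in WT and 40.9 ± 2.90 in KO (SD, n = 3). The log2 fold change was -0.47 ± 0.11 SE (95% interval -0.70 to -0.24, edgeR adjusted p = 0.0115). It was called under 16 of 17 alternatives, and the exception was the fit without KO replicate 1, at -0.45 with an edgeR adjusted p of 0.0578. None of the exonic bases of Bbc3 or Bcl2l11 in GENCODE M21 is shared with another gene annotated there. The overlaps given below are also those of GENCODE M21. The length inside the deposited FPKM of Bbc3 is 3263 bases, against 2124 exonic bases in GENCODE. Any counted bases outside the GENCODE exons were not checked.

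Both genes are known targets of FOXO transcription factors, which bind the forkhead motif GTAAACA, so the bases before their start sites were read. Windows were the 250 bases upstream of each RefSeq start site (GRCm38.p6), searched on both strands. Windows of 9 members were used, and that of Pmaip1 was not analysed here. The forkhead motif was present before at least 1 start site of 2 of the 9, and these were Bbc3 and Bcl2l11. Over all 32817 windows, 3.16% held it, and 3.53% of 26994 genes held it in at least 1 window. The members differ in their number of windows, and more windows give more places for a match. Bbc3 has 3, and Bcl2l11, Bcl2l1 and Bad also have more than 1. The 2 windows are shown because they hold the motif, in capitals, and both read along the plus strand.
Bbc3, chr7:16310011-16310260: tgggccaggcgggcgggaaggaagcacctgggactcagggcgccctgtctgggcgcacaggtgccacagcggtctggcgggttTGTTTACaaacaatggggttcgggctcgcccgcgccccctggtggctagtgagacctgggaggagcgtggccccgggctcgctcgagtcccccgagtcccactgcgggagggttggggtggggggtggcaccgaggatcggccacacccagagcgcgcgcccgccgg
Bcl2l11, chr2:128125788-128126037: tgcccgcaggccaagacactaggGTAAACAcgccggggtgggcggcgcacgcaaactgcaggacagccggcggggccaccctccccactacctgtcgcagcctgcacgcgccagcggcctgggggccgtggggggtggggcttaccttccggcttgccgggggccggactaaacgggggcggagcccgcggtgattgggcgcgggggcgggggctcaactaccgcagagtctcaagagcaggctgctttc
In Bbc3 the match is the reverse complement, TGTTTAC, 167 to 161 bases before the second of its 3 start sites and inside an intron of a longer annotated form. In Bcl2l11 it lies 227 to 221 bases before the first start site, outside the gene. A match describes the letters only. The motif was chosen for these 2 called genes, so its presence there is not independent of that choice. A role of FOXO factors was not tested. Foxo1 (15.2 ± 2.61 CPM in WT, 14.1 ± 1.82 in KO) and Foxo3 (72.3 ± 10.5 in WT, 71.6 ± 15.7 in KO, SD, n = 3) overlapped between groups and were not called. These are transcript levels, and the activity of the FOXO proteins was not measured. Of other motifs searched on both strands, the E-box CACGTG was found for Bbc3 and Bax among the 9 members (6.86% of all genes). The GC box GGGCGG was found for 7 of 9 members (35.3% of genes) and the cyclic AMP element TGACGTCA for 0 (1.77% of genes).

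The other 3 BH3-only members were not called. Pmaip1 encodes NOXA, a BH3-only protein that binds MCL1. Its transcript was scarce, at 2.02, 2.40 and 2.40 CPM in WT and 1.76, 1.32 and 2.39 in KO, from 49 to 98 counts per library. The groups overlapped and the log2 fold change was -0.35 with a 95% interval of -0.94 to 0.25 (edgeR adjusted p = 0.448). That interval includes both 0 and the value found for Bbc3. The value was -0.17 without KO replicate 2, -0.57 without KO replicate 3 and -0.13 without WT replicate 3 and KO replicate 2 together. The KO libraries spread more (coefficient of variation 29.6%) than the WT libraries (9.63%).

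Bid encodes the BH3-only protein that caspase-8 and calpains cut into its active form. It stood at 14.7, 14.8 and 11.9 CPM in WT and 15.3, 19.2 and 13.6 in KO. The groups overlapped, with KO replicate 2 the highest library and WT replicate 3 the lowest. Its log2 fold change was 0.21 (95% interval -0.14 to 0.55, edgeR adjusted p = 0.445), and -0.065 (edgeR adjusted p = 0.772) without those 2 libraries. Bad, a BH3-only protein that phosphorylation and 14-3-3 binding keep inactive, stood at 50.7, 56.1 and 61.1 CPM in WT and 55.6, 62.3 and 64.3 in KO. These ranges overlapped as well, with a log2 fold change of 0.095 (95% interval -0.15 to 0.34, edgeR adjusted p = 0.632). The value of Bad was 0.027 without WT replicate 1 and 0.18 without WT replicate 3 or without KO replicate 1. The strand setting of the counting is not given in the sources used here. Bid shares 17.7% of its exonic bases with Bcl2l13 and Bad 20.5% with Gpr137, both on the opposite strand, and neither neighbour was called.

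Among survival members, Mcl1 came closest to the threshold and was lower in KO. MCL1 is a short-lived survival protein, and its transcript is known to turn over fast. WT libraries stood at 779, 860 and 866 CPM and KO libraries at 700, 574 and 779 CPM. KO replicate 3 (779.5) lay just above WT replicate 1 (779.1), so the groups overlapped there, and KO replicate 2 was the lowest library. The log2 fold change was -0.31 ± 0.11 SE (95% interval -0.56 to -0.067) with an unadjusted edgeR p of 0.0169 and an adjusted p of 0.0858. It was negative under all 17 alternatives. The value shrank to -0.21 without KO replicate 2 and to -0.19 without WT replicate 3 and KO replicate 2 together. It grew to -0.36 without WT replicate 1 and to -0.39 without KO replicate 3. Of the 17, only the fit with the replicate number as a block called Mcl1 (-0.32, edgeR adjusted p = 0.0396).

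Bcl2l1, which encodes BCL-XL and its short form, was level across the libraries. It stood at 57.1, 61.6 and 57.9 CPM in WT and 58.6, 58.4 and 61.8 in KO. Its log2 fold change was -0.0038 with a 95% interval of -0.21 to 0.20 (edgeR adjusted p = 0.985), which corresponds to folds of 0.865 to 1.15. Bcl2, the founding member, was nearly absent, with 32 to 58 counts per library, or 1.30, 1.06 and 1.15 CPM in WT and 1.25, 0.86 and 1.78 in KO. KO replicates 2 and 3 were its lowest and highest libraries. The interval of its log2 fold change (0.12) ran from -0.63 to 0.87 (edgeR adjusted p = 0.869), which includes the value found for Bcl2l11. The coefficient of variation was 35.6% in KO and 10.3% in WT. Leaving out single libraries moved the value of Bcl2 to 0.19 (without WT replicate 1), 0.061 (WT replicate 2), 0.34 (KO replicate 2) and -0.15 (KO replicate 3).

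Both pore-forming members lay slightly above WT in KO without being called. Bax stood at 117, 125 and 112 CPM in WT and 132, 136 and 125 in KO. The groups touched, since KO replicate 3 (124.7) fell below WT replicate 2 (125.1), and the log2 fold change was 0.13 (95% interval -0.086 to 0.34, edgeR adjusted p = 0.438). KO replicate 2 was the highest and WT replicate 3 the lowest library for Bax. Its value was 0.085 without KO replicate 2 and 0.046 without both. Bax shares 12.2% of its exonic bases with the annotated gene Gm45808 on the same strand, so counting by strand cannot separate reads in them. Bak1 stood at 188, 172 and 186 CPM in WT and 207, 203 and 197 in KO. Every KO library of Bak1 was above every WT library, yet the log2 fold change was 0.13 (95% interval -0.075 to 0.34, edgeR adjusted p = 0.406). With Bbc3 and Bcl2l11 that made 3 of 10 members without overlap between groups, beside 33.6% of all tested genes. Bak1 shares 25.5% of its exonic bases with Ggnbp1 on the opposite strand, a gene at 0.130 CPM in WT and 0.269 in KO.

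KO replicate 2 was the lowest library for Bcl2, Mcl1, Bbc3, Bcl2l11 and Pmaip1 and the highest for Bax and Bid, so it was an extreme for 7 of 10 members. WT replicate 3 was an extreme for 5 of 10, on the opposite side for each of the 5 genes Mcl1, Bax, Bid, Bbc3 and Bcl2l11. These are the 2 libraries that stood apart over all genes. Without both, the log2 fold change was -0.60 for Bbc3 (edgeR adjusted p = 0.00335) and -0.38 for Bcl2l11 (edgeR adjusted p = 0.00979). These 2 remained the members called. With both left out, the second principal component runs with genotype, and their parts in these values cannot be told apart.

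**Figure D2:**
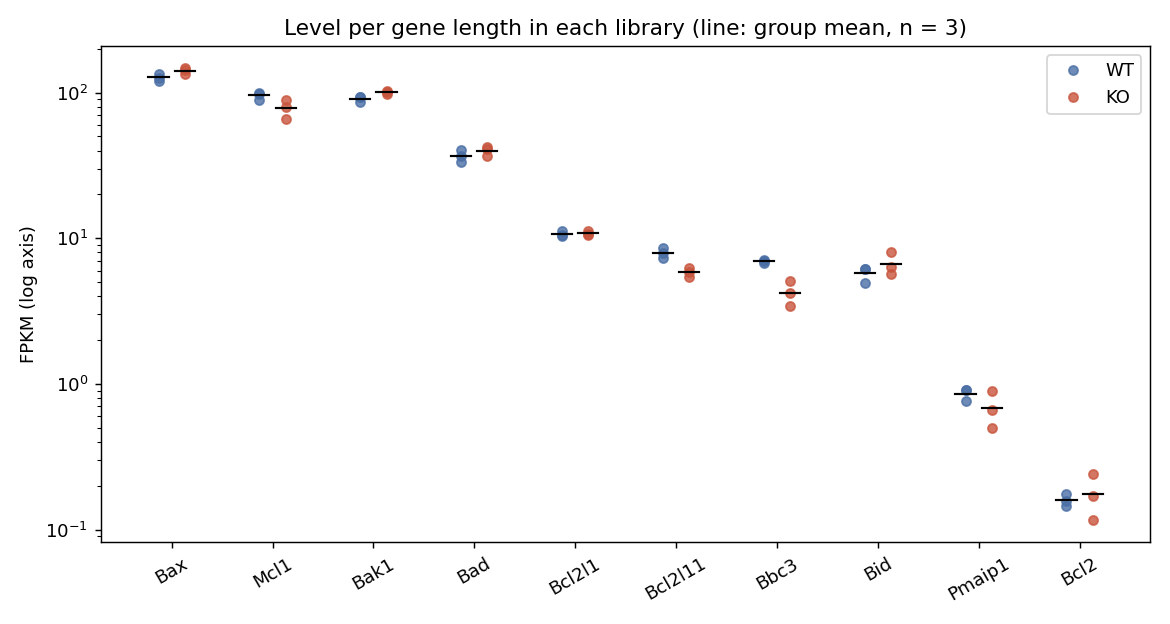
Level of each member in FPKM on a log axis, in order of the WT mean, with 1 point per library (blue WT, red KO) and a line at each group mean (n = 3). Bax, Mcl1 and Bak1 lie near 100 FPKM and Bcl2 near 0.2, the KO points of Bbc3 all lie below those of Bid, and those of Bcl2l11 overlap them.

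Levels between genes were compared per length, on FPKM. In WT the pore-forming gene Bax led at 127 ± 7.03, before Mcl1 (95.7 ± 5.55) and Bak1 (91.0 ± 4.24, SD, n = 3), the last 2 with overlapping ranges. Bad followed at 36.8, Bcl2l1 at 10.7, Bcl2l11 at 7.94, Bbc3 at 6.93, Bid at 5.74, Pmaip1 at 0.855 and Bcl2 at 0.159, and none of these neighbours overlapped in range. In KO, Bak1 (101) stood above Mcl1 (78.4) and Bid (6.70) above Bcl2l11 (5.82), the last 2 with overlapping ranges. Bbc3 came after them at 4.22. The order depends on gene length. The length inside the deposited FPKM of Mcl1 is 8725 bases, against 3418 exonic bases in GENCODE M21 and a gene span of 4389 bases. The deposited counts follow the submitters' gene models, which may hold bases outside those of GENCODE. Dividing these counts by the GENCODE length therefore gives a rough level, which can be too high. Per kilobase of the GENCODE length, Mcl1 ranked first among the members, at 244 CPM per kilobase in WT and 200.2 in KO. Bak1 (75.7 and 84.2) and Bax (74.9 and 83.1) then followed, and Bbc3 (10.6 and 6.49) stood above Bcl2l11 (6.95 and 5.09). Length does not enter the comparison of KO with WT.

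The 3 genes whose values ran most like those of Bbc3 over the 6 libraries, among 8976 genes, were Cab39 (Pearson r = 0.995 on log2(CPM + 1)), B3gnt8 (r = 0.992) and Hmgcs1 (r = 0.992). CAB39 is a scaffold of the kinase LKB1, B3GNT8 a glycan-building enzyme and HMGCS1 an enzyme of cholesterol synthesis. The likeness is a description of 6 points in 2 groups. Each of the 3 was lower in KO, with log2 fold changes of -0.37, -0.45 and -0.60.

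The remaining family genes were read from a list of 15, of which 13 were in the tables and 11 were tested. Of these, 2 rose and 1 fell, with a median log2 fold change of -0.022. The share called was 27.3%, beside 14.6% of all tested genes, and the list was not tested as a set. Bmf, a further BH3-only gene, fell most of all family genes tested. It stood at 21.1, 22.7 and 20.7 CPM in WT and 9.65, 8.36 and 12.0 in KO, with no overlap. Its log2 fold change was -1.13 ± 0.14 SE (edgeR adjusted p = 3.06e-04), and it was called under all 17 alternatives. Bmf has 3 start-site windows in the RefSeq table, and none held the forkhead motif.

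**Figure D3:**
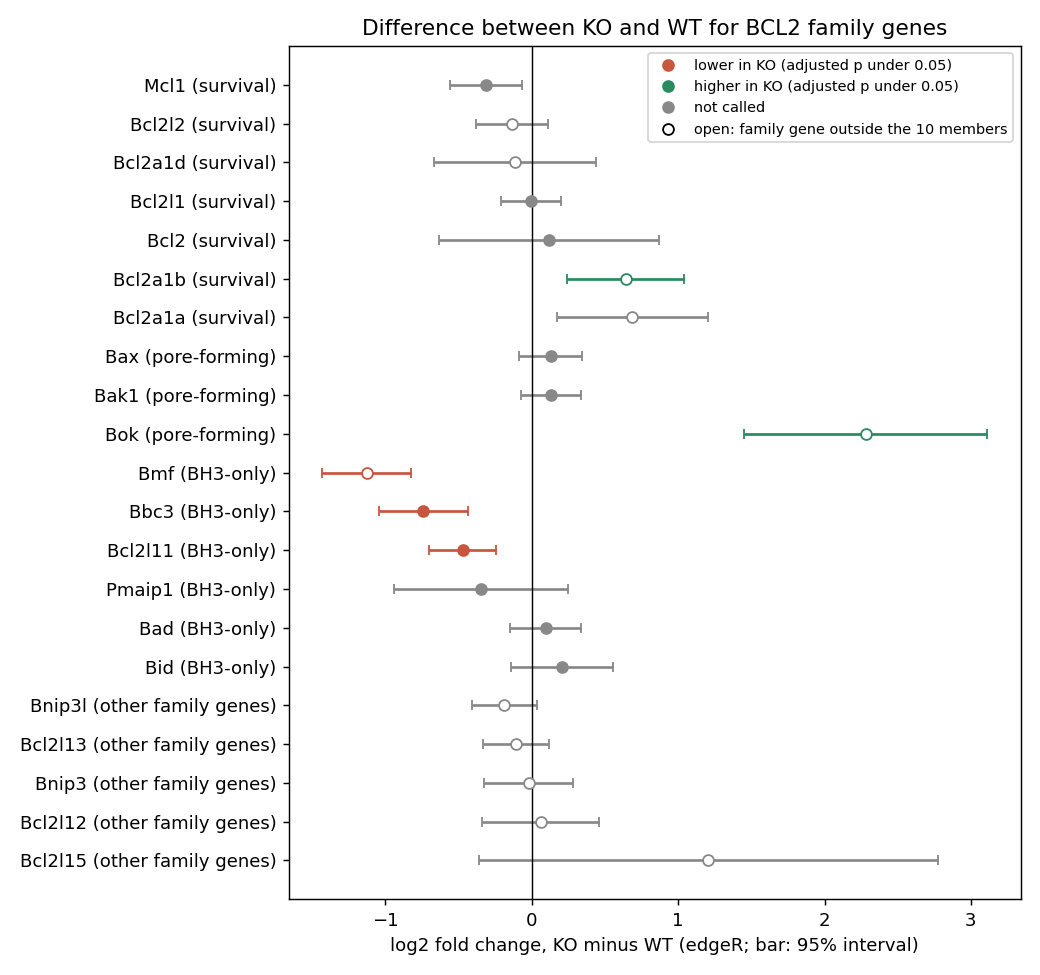
Log2 fold change (KO minus WT, edgeR) of the 10 members (filled) and the 11 other tested family genes (open), with 95% intervals, grouped by role. Red genes were called lower and green genes higher in KO. Bmf, Bbc3 and Bcl2l11 are the 3 lower genes, and Bok and Bcl2a1b the higher ones.

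Bok, a pore-forming relative of BAX and BAK, rose from a low level. It stood at 0.317, 0.58 and 1.12 CPM in WT and 3.75, 3.52 and 2.88 in KO (log2 fold change 2.28 ± 0.38 SE, edgeR adjusted p = 0.00221). With log2(FPKM + 1) values, whose pseudocount shrinks differences at such low levels, limma-trend gave 1.16. The fibroblast and marrow stroma markers were also higher in KO, and their part in the level of Bok was not tested. In bulk samples, more cells of a type and more RNA per cell cannot be told apart.

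The A1 survival genes are near-identical copies that share 78.9 to 88.6% of their 32-base words with other genes, so reads cannot be assigned among them with certainty. Bcl2a1b was called as higher (log2 fold change 0.64 ± 0.18 SE, edgeR adjusted p = 0.0363), Bcl2a1a (0.69, edgeR adjusted p = 0.0748) and Bcl2a1d (-0.12, edgeR adjusted p = 0.819) were not. Bcl2a1b also shares 49.1% of its exonic bases with the annotated gene Gm29094 on the same strand, so counting by strand cannot separate reads in them. Gm29094 is not in the sum of copies given below. The call of Bcl2a1b was lost without WT replicate 1, 2 or 3 or KO replicate 2 (edgeR adjusted p of 0.0584 to 0.0756), with a log2 fold change of 0.38 without KO replicate 2 and 0.27 without WT replicate 3 as well. Summed over the 3 copies, WT libraries stood at 54.4, 48.1 and 35.8 CPM and KO libraries at 57.9, 84.97 and 53.05. The sums overlapped, and an exact two-sided permutation test gave p = 0.2. Bcl2l2, Bcl2l12, Bcl2l13, Bcl2l15, Bnip3 and Bnip3l were not called. Their WT levels ran from 0.031 FPKM for Bcl2l15 to 20.4 FPKM for Bnip3l, with Bnip3 at 11.6, Bcl2l13 at 6.27, Bcl2l2 at 5.90 and Bcl2l12 at 5.20. Bik (at most 14 counts) and Bcl2l14 (at most 15 counts) did not pass the count filter.

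**Figure D4:**
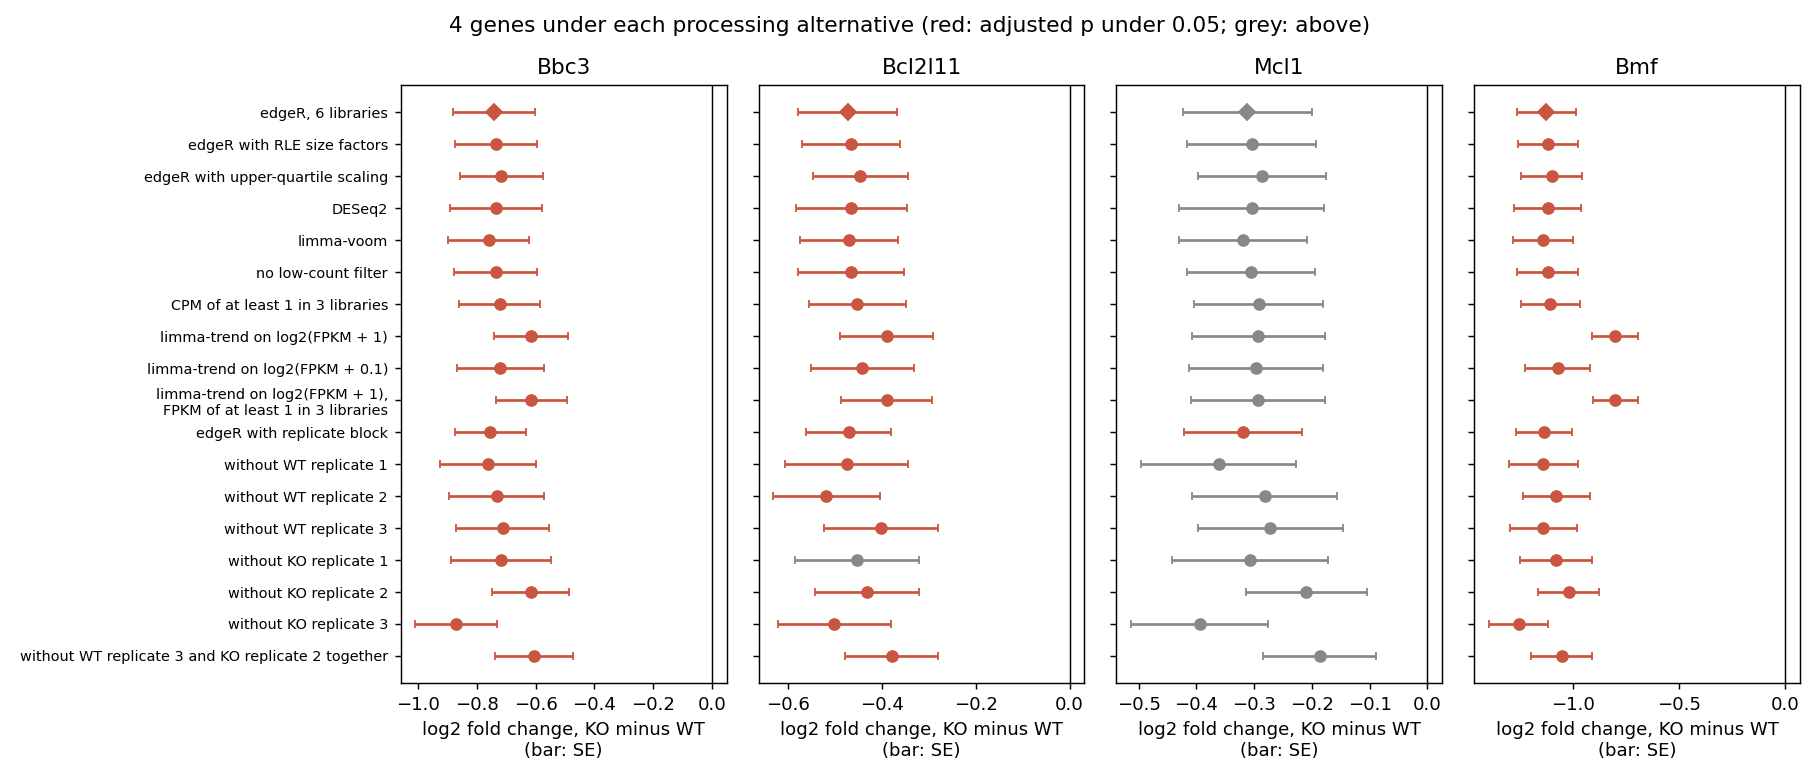
Log2 fold change (KO minus WT) of Bbc3, Bcl2l11, Mcl1 and Bmf in edgeR with the 6 libraries (diamond) and under each of 17 alternatives (circles), with SE bars. Red marks an adjusted p under 0.05. Every value lies below 0, Bcl2l11 is grey without KO replicate 1 only, and Mcl1 is red with the replicate block only.

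Downstream of the family, in a list of 22 genes of the mitochondrial pathway and caspases, 0 rose and 3 fell. That share called (13.6%) is near the 14.6% of all tested genes, and the median log2 fold change was -0.075. The initiator caspase Casp2 stood at 35.6, 35.9 and 32.3 CPM in WT and 26.8, 22.4 and 26.2 in KO (log2 fold change -0.48 ± 0.11 SE, edgeR adjusted p = 0.0117). The executioner caspase Casp6 (-0.49, edgeR adjusted p = 0.0314) and the ubiquitin ligase Birc3 (-0.43, edgeR adjusted p = 0.0159) fell too. Those 3 calls were each lost without WT replicate 1 (edgeR adjusted p of 0.0542, 0.106 and 0.0628 in turn). The calls of Casp6 and Birc3 disappeared likewise when WT replicate 2, KO replicate 1 or KO replicate 3 was left out, and the highest edgeR adjusted p was 0.153. The apoptosome genes Cycs (log2 fold change 0.52, edgeR adjusted p = 0.0532), Apaf1 (-0.20) and Casp9 (0.043) were not called. Neither was the DNA-cutting nuclease Dffb, which had the largest difference of the list (-0.72, edgeR adjusted p = 0.0932).

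In the death receptor and necroptosis list, 1 of 15 tested genes rose and 1 fell, with a median of -0.055. The share called was 13.3%, near the 14.6% of all tested genes. Tnfrsf10b, the TRAIL receptor of the mouse, stood at 1.82, 1.41 and 1.69 CPM in WT and 4.57, 4.03 and 4.93 in KO, with no overlap. Its log2 fold change was 1.44 ± 0.21 SE (edgeR adjusted p = 0.00105), and it was called under all 17 alternatives. The level of Tnfrsf10b was low, as for Bok, and the part of the higher fibroblast and marrow stroma markers in it was not tested. Tnfsf10, which encodes TRAIL itself, fell. It stood at 7.21, 5.32 and 5.55 CPM in the WT libraries against 3.75, 4.30 and 3.31 in the KO libraries, with a log2 fold change of -0.69 ± 0.19 SE (edgeR adjusted p = 0.0357). Its call was lost without WT replicate 1 or 2 or KO replicate 1 or 3 (edgeR adjusted p of 0.0537 to 0.146). The receptor Fas (0.12), the initiator Casp8 (-0.31, edgeR adjusted p = 0.108) and the necroptosis genes Ripk3 (-0.063) and Mlkl (-0.055) were not called. Ripk1, a kinase shared by both death pathways, stood at 88.7, 94.0 and 82.5 CPM in WT and 73.3, 72.9 and 71.6 in KO. Its groups did not overlap, and it missed the threshold (log2 fold change -0.31, edgeR adjusted p = 0.0538).

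Since Bbc3, Bax and Pmaip1 are known p53 targets, a list of 20 p53 pathway genes was read, in which 1 rose and 4 fell (median -0.091). The share called was 25%, beside 14.6% of all tested genes, and the list was not tested as a set. The kinase Plk2 stood at 23.6, 30.3 and 25.8 CPM in WT, while KO libraries held 14.7, 15.2 and 14.1, with a log2 fold change of -0.88 ± 0.12 SE (edgeR adjusted p = 7.63e-04). Sesn1 (-0.60), the p53 inhibitor Mdm4 (-0.50) and the antiproliferative gene Btg2 (-0.47) fell, and Phlda3 (0.59 ± 0.12 SE, edgeR adjusted p = 0.0066), an inhibitor of AKT, rose. The classic targets Cdkn1a (-0.049), Mdm2 (-0.22) and Ccng1 (-0.013) were not called. The largest differences among uncalled genes of the list were those of Perp (0.63, edgeR adjusted p = 0.542) and Gadd45a (-0.53, edgeR adjusted p = 0.224). Trp53 itself stood at 78.9 to 85.1 CPM in WT and 92.9 to 95.1 in KO, without overlap and without a call (log2 fold change 0.19, edgeR adjusted p = 0.209). The list thus held members above and below WT. Calls were lost without KO replicate 3 for Sesn1, Mdm4 and Btg2 (edgeR adjusted p of 0.0652, 0.0847 and 0.0561), without WT replicate 1 or KO replicate 1 for Sesn1 and Mdm4, and without WT replicate 2 for Mdm4.

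Of 26 regulators of BCL2 family proteins and genes, 1 rose and 2 fell (median -0.023). The share called was 11.5%, beside 14.6% of all tested genes. The kinase Pim1, which can phosphorylate BAD, fell. Its WT libraries held 126, 134 and 140 CPM against 97.7, 74.5 and 93.4 in KO, with a log2 fold change of -0.61 ± 0.11 SE (edgeR adjusted p = 0.00376). Its relative Pim3 rose (0.67 ± 0.17 SE, edgeR adjusted p = 0.0213). Ywhaz, a 14-3-3 protein of the kind that holds BAD in the cytosol, fell from 177 to 199 CPM in the WT libraries to 138 to 140 CPM in the KO libraries (log2 fold change -0.46 ± 0.096 SE, edgeR adjusted p = 0.00747). The call of Pim3 was lost without WT replicate 1 or 2 or KO replicate 1 or 3 (edgeR adjusted p of 0.0724 to 0.0927). Among genes of MCL1 turnover, the ubiquitin ligase Trim17 had the largest difference of the list without being called. It stood at 1.53, 1.39 and 1.54 CPM in WT and 0.994, 0.779 and 0.521 in KO, with no overlap (log2 fold change -0.97 ± 0.35 SE, edgeR adjusted p = 0.0841). The ligases Huwe1 (-0.026) and Fbxw7 (-0.055) and the deubiquitinase Usp9x (0.023) were not called, nor was the stress factor Ddit3 (-0.064). The calpain genes Capn1 (-0.12) and Capn2 (0.032), whose products can cut several family proteins, were not called either, nor was the calpain inhibitor Cast (0.17).

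**Figure D5:**
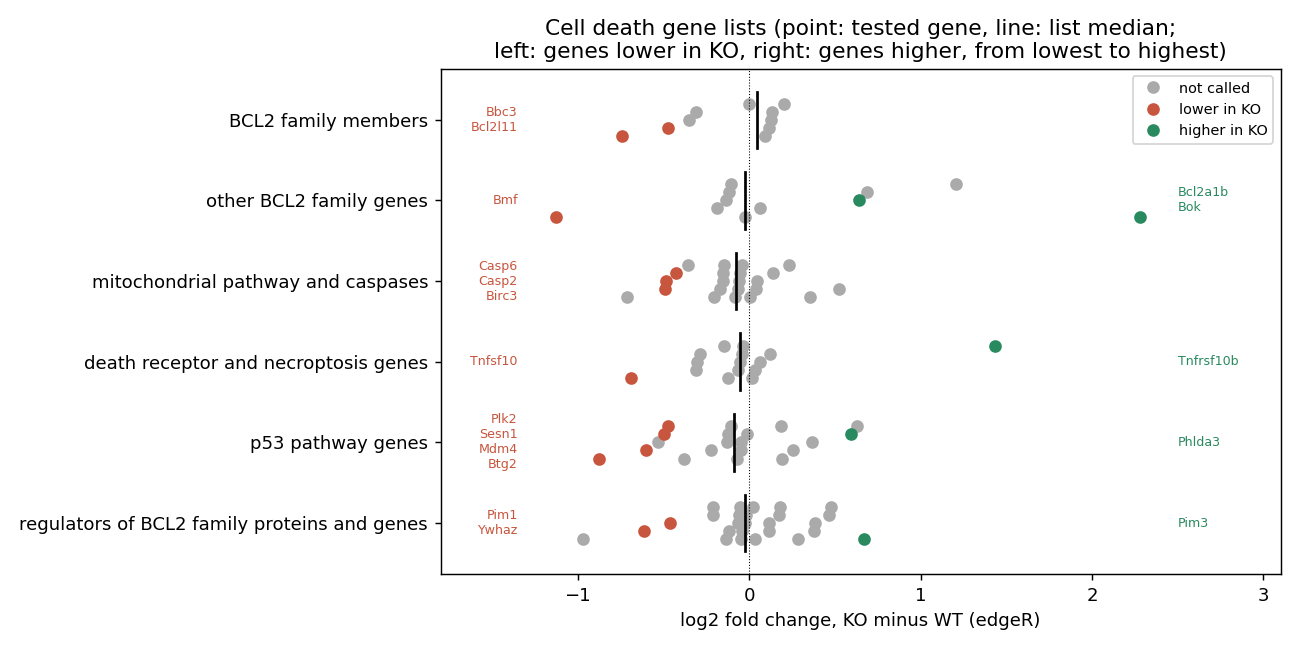
Log2 fold change (KO minus WT, edgeR) of every tested gene in 6 cell death lists. Grey points were not called, red were called lower and green higher in KO, with their symbols at the left and right edge, and the black line is the list's median. The medians lie between -0.091 and 0.046. The share called was 20% for the members, 27.3% for other family genes and 25% for the p53 pathway. It was 13.6% for the mitochondrial pathway and caspases, 13.3% for death receptors and necroptosis and 11.5% for regulators. Over all tested genes it was 14.6%.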

How the data were processed

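Per the labels' protocols, strand-specific libraries came from total RNA of 6 samples. The authors deposited raw read counts per gene and FPKM values. HTSeq, HISAT2, fastp and the mm10 build are named in the submitters' processing notes. The sources used here do not give their versions or whether HTSeq counted by strand. The deposited FPKM matched the count divided by the column total and by 1 length per gene, with 99.99% of the values from 10 or more counts equal to within 1%. After filterByExpr had kept 12219 genes, the counts were scaled by TMM and tested by group with the quasi-likelihood F test of edgeR 4.0.16 (R 4.3.3), with Benjamini-Hochberg adjustment. SE is the log2 fold change over the square root of F, and intervals use its degrees of freedom. The test scripts were tested on simulated data. CPM values use the whole column total, and FPKM served only for levels and limma-trend.

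Members and lists were chosen with earlier results of these data known. Named genes were the 10 members, Capns1, other family genes by level, up to 6 called genes per further list, and the 3 genes most correlated with Bbc3 (mean CPM of at least 5). Uncalled genes of these lists, markers and neighbours were named after their values were seen. Alternatives comprised RLE and upper-quartile scaling, DESeq2 1.42.0, limma-voom and limma-trend (limma 3.58.1), no low-count filter, CPM of at least 1 in 3 libraries, pseudocounts of 1 and 0.1 on FPKM, FPKM of at least 1 in 3 libraries, the replicate number as a block, each library left out in turn, and both libraries that stood apart left out. The GENCODE length was added after the data were seen. All 10 members matched RefSeq by Entrez identifier. No sample's values duplicated another's.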

Additional observations from a re-analysis of the deposited data

How the results depend on the processing

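The members called numbered 2 in edgeR, 3 with the replicate block (Mcl1 added, edgeR adjusted p = 0.0396), 1 to 2 when 1 library was left out, and 2 under every other alternative run. Calls over all genes numbered 1119 to 1741 with 1 library left out, 3186 without WT replicate 3 and KO replicate 2 together, and 2526 with the replicate block. For the mitochondrial pathway and caspases the called genes numbered 3, against 7 with the replicate block, 0 to 4 with 1 library left out and 7 without both libraries. For death receptors and necroptosis they numbered 2, against 4 with the block, 1 with limma-trend on log2(FPKM + 0.1), 1 with limma-trend when 3 libraries had to reach an FPKM of 1, 1 to 3 with 1 library left out and 6 without both. For the p53 pathway they numbered 5, against 6 with the replicate block, 2 to 5 with 1 library left out and 7 without both libraries. For regulators they numbered 3, and 5 without both libraries. The other family genes called numbered 3, and 2 to 4 over all alternatives. In these changes the cause was not tested, and fits without a library have fewer samples. Same-numbered WT and KO libraries had correlations of -0.098, 0.23 and 0.18 in their deviations from group means. Those of unlike number ranged from -0.37 to 0.26. These values do not settle whether the numbers mark pairs, and the main fit did not take them as pairs. The largest shift of the median of all genes by another scaling was from -0.011 to 0.014. With the GENCODE length, Mcl1 ranked 1 in place of 2 by level in WT, Bax 3 in place of 1, Bak1 2 in place of 3, Bbc3 6 in place of 7 and Bcl2l11 7 in place of 6. Bcl2 and Pmaip1 had at most 58 and 98 counts in any library, and what part depth has in their wide intervals was not tested.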
